A study of Mus musculus with 6 samples.

Results

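The genes described here carry the transforming growth factor beta (TGF-beta) signal from its secretion to the cell surface: the ligands Tgfb1, Tgfb2 and Tgfb3, the receptors Tgfbr1, Tgfbr2 and Tgfbr3, and the latent TGF-beta binding proteins Ltbp1, Ltbp2, Ltbp3 and Ltbp4. They were chosen by gene family, 10 of the 22180 genes named on the array, and each was read by 1 probe set of its own. The measurements came from fibroblasts of ventral skin, sorted as live cells that carry CD140, the platelet-derived growth factor receptors, and lack CD31, CD45, CD117 and CD49f. The wild-type (WT) group had 3 samples and the KrP group, which carries the K14-PTHrP transgene, also had 3, with 1 microarray per sample. In that transgene parathyroid hormone-related protein (PTHrP) is under the promoter of keratin 14, a gene of basal keratinocytes, so the fibroblasts themselves are not its intended site of expression. All mice were females aged 8 to 12 weeks on a C57BL/6 background, the WT mice were littermates of the transgenic ones, WT skin is described as being in telogen and KrP skin as nipple-like. The study asked how the fibroblasts of this nipple-like skin differ from those of normal ventral skin. Cells were pooled before the sort, and the labels give 3 mice as their source without saying whether that number is per sample, so the p-values reflect the variation among these arrays alone, part or all of which may be technical. The descriptions of KrP 2 and KrP 3 name keratin 15 and keratin 16, while their titles, source names and genotypes match those of KrP 1.

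TGF-beta is made as a precursor whose propeptide stays bound to the mature ligand and keeps it inactive. The propeptide is usually bonded to a latent binding protein, which holds the complex on fibrillin microfibrils in the matrix until integrins, proteases or thrombospondin release the ligand. Freed TGF-beta binds the type II receptor, which recruits and phosphorylates the type I receptor, and SMAD proteins pass the signal to the nucleus. In dermal fibroblasts the pathway is best known for raising collagen, fibronectin and contractile genes.

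Values are log2 expression values per probe set, so a difference of 1 is a 2-fold change, and levels of different genes are not compared because each probe set has its own response. The array medians lay between 6.34 and 6.43. Olfactory receptor genes, which served as a guide to background, had a median of 4.07 and a 95th percentile of 6.31, and every member lay above that percentile in every sample. KrP 2 stood apart from the other KrP arrays, since its mean correlation over all probe sets was 0.989 with the WT arrays and also 0.989 with the other KrP arrays. Pdgfra, which encodes CD140a, had means of 13.23 in WT and 13.47 in KrP samples, and Ptprc, which encodes CD45, had means of 4.85 and 4.65. Of the other markers the sort selected against, Pecam1, which encodes CD31, had means of 6.73 and 6.68, Kit, which encodes CD117, 6.23 and 6.18, and Itga6, which encodes CD49f, 7.41 and 7.55. Pecam1 and Itga6 thus lay above the olfactory 95th percentile in both groups, and Itga6 ranged from 6.49 in KrP 1 to 8.16 in KrP 2. Genes were called at an adjusted p under 0.05 by limma with Benjamini-Hochberg adjustment over all genes.

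In KrP fibroblasts the ligand gene Tgfb1 was 2.13-fold lower, and the latent binder gene Ltbp3 was 1.82-fold higher. These were the 2 members of 10 that passed the test, 1 in each direction, where 2.18% of all genes passed. The family was chosen with earlier results of these data known, so this share is not an independent result. Ltbp1, with a log2 fold change of 0.90, narrowly missed the threshold, and Ltbp2 and Ltbp4 had lower means in KrP samples. The median log2 fold change over the 10 members was -0.11, against 0.01 over all genes. With the replicate number as a block, 5 members passed, 2 higher and 3 lower, where 8.35% of all genes passed. That pairing was taken from these data and not from the labels. The WT and KrP values did not overlap for 4 members, 2 higher and 2 lower, where 20.3% of all genes had no overlap. In such bulk samples, fewer cells that express a gene and less RNA per cell cannot be told apart.

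**Figure D1:**
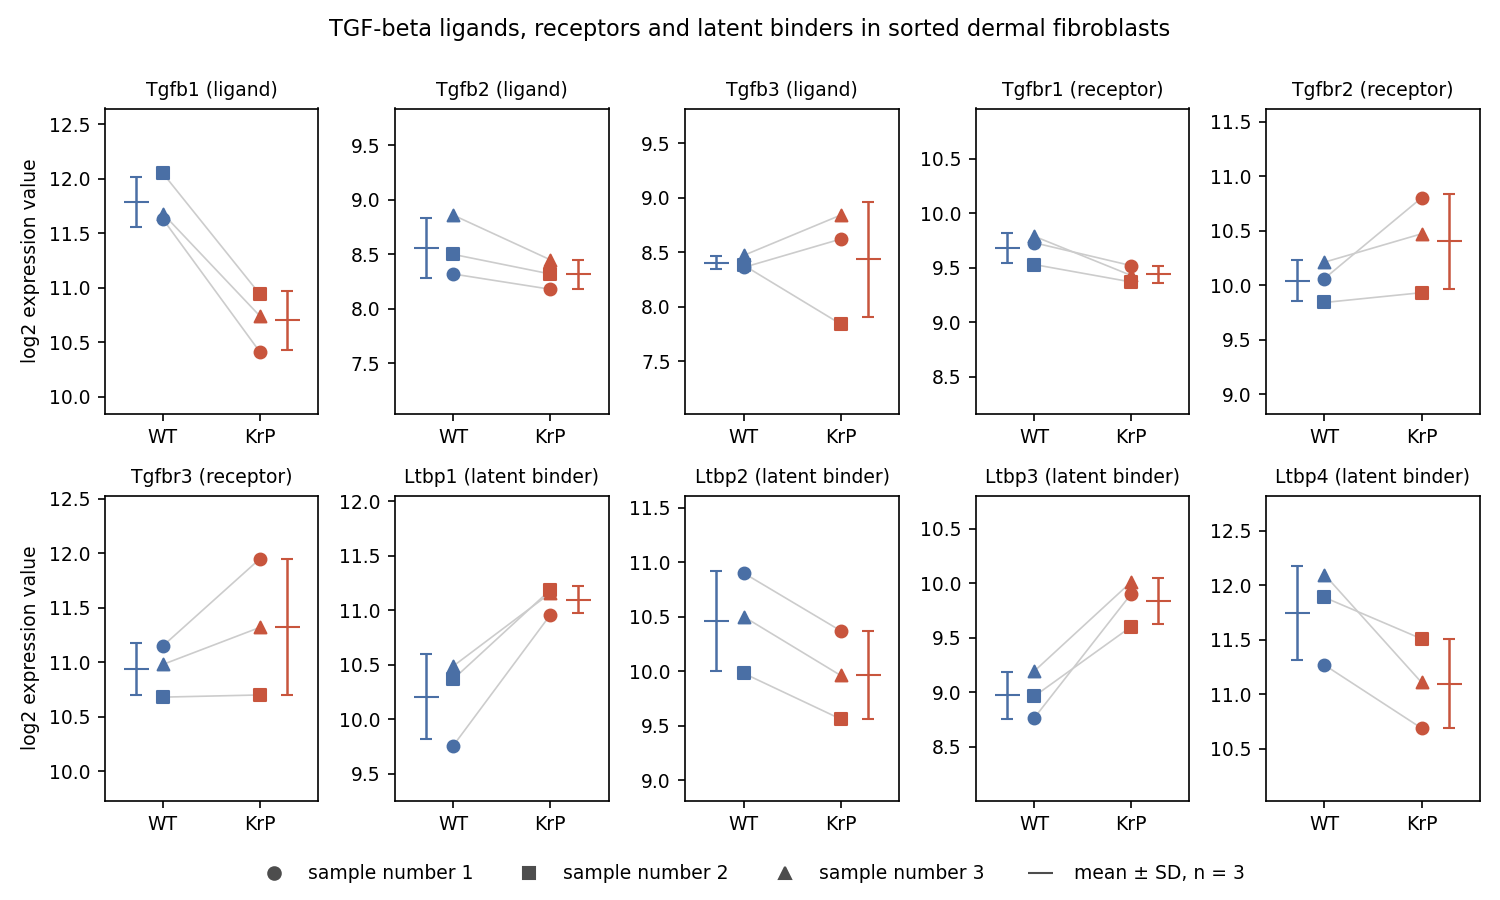
Log2 expression values of the 10 members in the 3 WT and 3 KrP samples, 1 panel per gene, each panel spanning the same log2 range. Points are single arrays, grey lines join samples with the same number, and the bars beside them are means with SD (n = 3). Tgfb1 is lower in all 3 KrP samples than in any WT sample, Ltbp1 and Ltbp3 are higher, and KrP 2 lies near the WT samples for Tgfbr2 and Tgfbr3.

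Tgfb1 encodes TGF-beta 1, the ligand most studied in wound repair and fibrosis. Its log2 values were 11.63, 12.05 and 11.68 in WT 1 to 3 and 10.41, 10.94 and 10.74 in KrP 1 to 3. Every KrP value lay below every WT value, and the lowest WT value exceeded the highest KrP value by more than the spread within either group. The means were 11.79 ± 0.23 and 10.70 ± 0.27 (SD, n = 3 each), a log2 fold change of -1.09 ± 0.16 SE, or 2.13-fold lower, with a limma adjusted p of 0.0175. The 95% confidence interval ran from -1.47 to -0.71. KrP 1 was 1.22 below WT 1 on the log2 scale (difference -1.22), and the samples numbered 2 and 3 differed by -1.11 and -0.94. The call ended without WT 2 (limma adjusted p = 0.0530), without WT 3 (0.0800) and without KrP 3 (0.104), with log2 fold changes from -1.14 to -0.96 in those fits.

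Tgfb2 encodes TGF-beta 2, a ligand with known roles in skin and hair follicle development. Its values were 8.32, 8.50 and 8.86 in WT samples and 8.18, 8.32 and 8.45 in KrP samples, so the groups overlapped. The means differed by -0.24 ± 0.16 SE on the log2 scale, with a 95% confidence interval of -0.62 to 0.13 (limma adjusted p = 0.532).

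Tgfb3 encodes TGF-beta 3, known for its part in palate fusion. Its values were 8.36, 8.38 and 8.47 in WT samples and 8.62, 7.84 and 8.84 in KrP samples. The WT samples were close together, while KrP 2 lay below them and KrP 1 and KrP 3 above them, giving SDs of 0.06 and 0.53. The log2 fold change of 0.03 ± 0.24 SE had a 95% confidence interval of -0.52 to 0.58 (limma adjusted p = 0.972). Its sign was negative with quantile normalisation (-0.09), without KrP 1 (-0.06) and without KrP 3 (-0.17), and its value was 0.33 without KrP 2 (adjusted p = 0.234). Of the 3 ligand genes, Tgfb1 alone passed the test. The log2 ratio of Tgfb1 to Tgfb2 on each array was 3.23 ± 0.37 in WT and 2.38 ± 0.21 in KrP samples, and that of Tgfb1 to Tgfb3 was 3.38 ± 0.25 and 2.26 ± 0.73 (SD, n = 3 each), without overlap in either case. Both had an exact two-sided permutation p of 0.10, the smallest that 3 against 3 samples allow, and 0.171 after Benjamini-Hochberg adjustment over the 12 ratios formed within the ligands, receptors and latent binders. Whether the ligands differ in their change was not tested in another way.

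Tgfbr1 encodes the type I receptor kinase, also called ALK5, which phosphorylates SMAD2 and SMAD3. Its values were 9.73, 9.53 and 9.79 in WT samples and 9.52, 9.37 and 9.43 in KrP samples. The groups did not overlap, but the highest KrP value all but touched the lowest WT value. The KrP mean was below the WT mean, with a log2 fold change of -0.24 ± 0.12 SE and a 95% confidence interval of -0.52 to 0.03 (limma adjusted p = 0.377).

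Tgfbr2 encodes the type II receptor kinase, which binds the ligand first. Its values were 10.06, 9.84 and 10.21 in WT samples and 10.80, 9.93 and 10.47 in KrP samples. KrP 1 and KrP 3 exceeded every WT sample and KrP 2 lay within the WT range. This gave a log2 fold change of 0.36 ± 0.22 SE (limma adjusted p = 0.470), or 0.60 without KrP 2 (adjusted p = 0.0784).

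Tgfbr3 encodes betaglycan, a co-receptor without kinase activity that presents TGF-beta, in particular TGF-beta 2, to the type II receptor. Its values were 11.15, 10.68 and 10.98 in WT samples and 11.95, 10.70 and 11.32 in KrP samples, so KrP 2 again sat at the low end of the WT range. The log2 fold change was 0.39 ± 0.28 SE with a 95% confidence interval of -0.27 to 1.04 (limma adjusted p = 0.571), or 0.70 without KrP 2 (adjusted p = 0.106). No receptor gene passed the test, also with the replicate block, under which the adjusted p was 0.199 for Tgfbr1, 0.174 for Tgfbr2 and 0.173 for Tgfbr3.

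Ltbp1 encodes the latent binder first found attached to TGF-beta 1, and it carries all 3 latent ligands. Its values were 9.76, 10.37 and 10.49 in WT samples and 10.96, 11.19 and 11.16 in KrP samples. Every KrP value lay above every WT value, and WT 1 was the lowest of the 6. The means were 10.21 ± 0.39 and 11.10 ± 0.13 (SD, n = 3 each), a log2 fold change of 0.90 ± 0.19 SE, with a 95% confidence interval of 0.46 to 1.33 and a limma adjusted p of 0.0582, or 0.00842 with the replicate block. It also passed with array weights (0.00268), where 6410 of 22180 genes passed, and with the lower 50% of genes by mean level dropped (0.0481). Ltbp1 did not pass with quantile normalisation (limma adjusted p = 0.0735) or in any fit that left a sample out (0.0681 to 0.253).

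Ltbp3 encodes a latent binder that likewise carries all 3 ligands and is known for its part in bone and tooth growth. Its values were 8.76, 8.96 and 9.19 in WT samples and 9.90, 9.60 and 10.01 in KrP samples. All 3 KrP samples exceeded all WT samples. The means were 8.97 ± 0.22 and 9.84 ± 0.21 (SD, n = 3 each), a log2 fold change of 0.87 ± 0.16 SE, or 1.82-fold higher, with a limma adjusted p of 0.0383. The call ended without WT 1 (limma adjusted p = 0.101), WT 2 (0.108), WT 3 (0.0899), KrP 1 (0.0845) or KrP 3 (0.209) and with quantile normalisation (0.0630). In these fits the log2 fold change stayed between 0.76 and 0.98.

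Ltbp4 encodes an elastic fibre protein that binds TGF-beta 1 weakly and helps fibulin 5 to deposit elastin. Its values were 11.27, 11.89 and 12.10 in WT samples and 10.69, 11.51 and 11.11 in KrP samples. WT 1 fell among the KrP values, so the groups overlapped, although each KrP sample was below the WT sample with its number, by differences of -0.58, -0.38 and -0.99. The mean difference was -0.65 ± 0.25 SE on the log2 scale (limma adjusted p = 0.260, against 0.0256 with the replicate block).

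Ltbp2 encodes a microfibril protein of the same family that does not bind latent TGF-beta. Its values were 10.90, 9.98 and 10.50 in WT samples and 10.37, 9.56 and 9.96 in KrP samples, which overlapped. The same-numbered samples differed by -0.53, -0.42 and -0.54, close to one another, whereas the SD among the WT samples was 0.46. Between the means the log2 fold change was -0.50 ± 0.27 SE (limma adjusted p = 0.417, against 0.0213 with the replicate block). A further probe set shared by Ltbp2 and the overlapping noncoding locus D030025P21Rik, not used for the gene, had a mean of 7.94 in WT and 7.58 in KrP samples, a difference of -0.36 on the log2 scale.

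The latent binder genes thus had KrP means on both sides of WT, with Ltbp1 and Ltbp3 above and Ltbp2 and Ltbp4 below, all 4 passing with the replicate block and Ltbp3 alone without it. On each array the log2 ratio of Ltbp1 to Ltbp4 was -1.51, -1.52 and -1.61 in WT samples and 0.27, -0.32 and 0.05 in KrP samples, a difference between the means of 1.55. The ratio of Ltbp3 to Ltbp4 averaged -2.78 ± 0.24 and -1.27 ± 0.58 (SD, n = 3 each) in the WT and KrP groups, a difference of 1.52. That of Ltbp1 to Ltbp3 was 1.24 ± 0.21 in WT and 1.27 ± 0.28 in KrP samples. The first 2 ratios had no overlap between groups and an exact permutation p of 0.10 (0.171 after adjustment), and the third had an exact permutation p of 0.90. The ratios were picked out after their values were seen, and only their change between groups has a meaning, since their level depends on the probes.

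**Figure D2:**
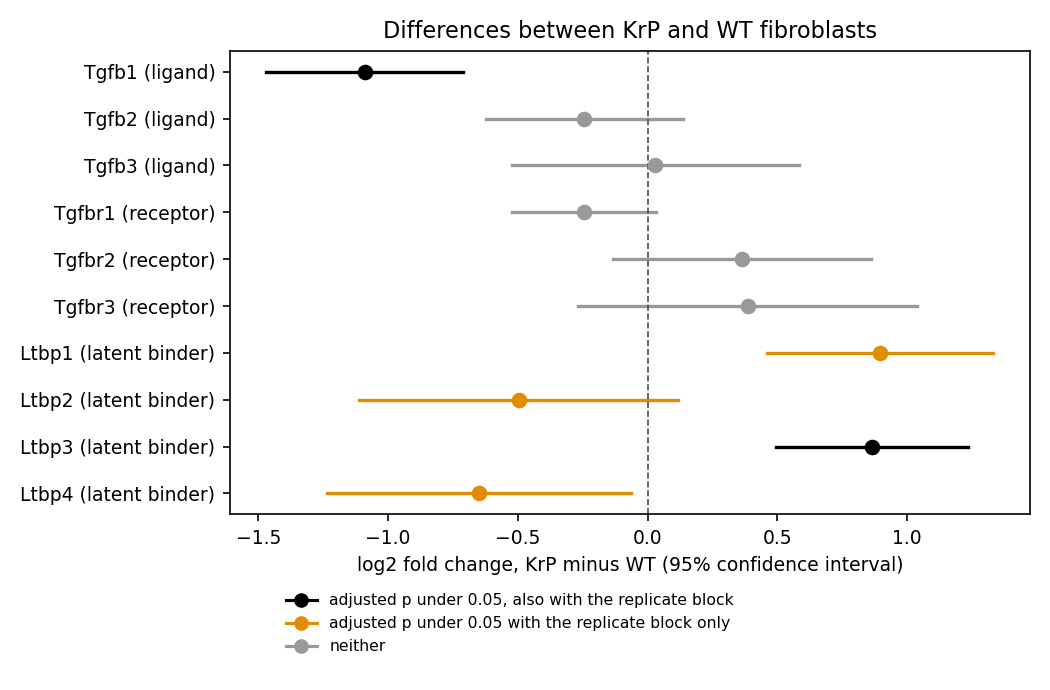
Log2 fold change of each member, KrP minus WT, with its 95% confidence interval from limma (3 arrays per group). Tgfb1 and Ltbp3, in black, passed at an adjusted p under 0.05 with and without the replicate block, and Ltbp1, Ltbp2 and Ltbp4, in orange, passed with the block only.

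**Figure D3:**
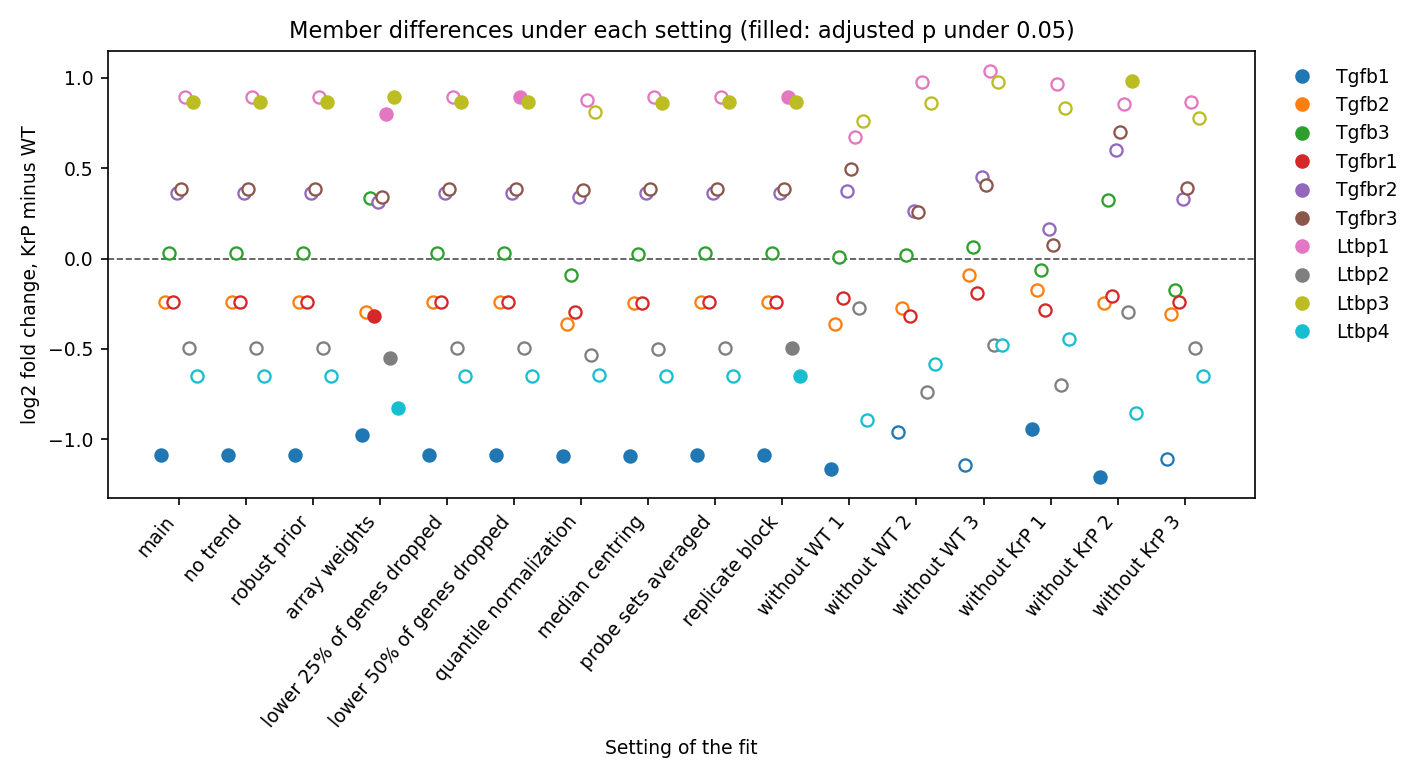
Log2 fold change of each member, KrP minus WT, in the main fit and under 15 other settings, 1 colour per gene, filled where the limma adjusted p was under 0.05. Tgfb1 stays between -1.21 and -0.95 and Ltbp3 between 0.76 and 0.985, while Tgfb3 crosses 0. The settings for trend, robust prior, dropped low genes, averaged probe sets and block repeat the main log2 fold change by design.

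The sequences upstream of the 3 members with the clearest differences are shown so that their promoters can be compared. RefSeq windows on GRCm38.p6 were found for 8 of the 10 members, 12 windows in all because some genes have several starts. Each window holds the 250 bases before an annotated transcript start and no transcribed base of that transcript, 5′ to 3′ on the strand of the gene. The window of Tgfb1 is chr7:25686752-25687001, that of Ltbp1 is chr17:75005279-75005528 for the upstream of its 2 starts, and that of Ltbp3 is chr19:5740650-5740899, each on the plus strand. Capitals mark GC boxes (GGGCGG or its reverse complement CCGCCC) and the cAMP response element (TGACGTCA, its own reverse complement).
Tgfb1: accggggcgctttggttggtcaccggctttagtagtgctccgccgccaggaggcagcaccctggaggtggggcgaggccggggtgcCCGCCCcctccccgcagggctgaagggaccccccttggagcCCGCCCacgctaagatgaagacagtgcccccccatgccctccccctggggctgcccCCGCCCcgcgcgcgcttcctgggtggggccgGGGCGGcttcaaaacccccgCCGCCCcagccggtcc
Ltbp1: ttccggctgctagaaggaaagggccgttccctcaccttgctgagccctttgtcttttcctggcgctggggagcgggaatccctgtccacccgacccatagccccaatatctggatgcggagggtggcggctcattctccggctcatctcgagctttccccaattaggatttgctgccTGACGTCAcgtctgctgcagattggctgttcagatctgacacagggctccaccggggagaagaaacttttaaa
Ltbp3: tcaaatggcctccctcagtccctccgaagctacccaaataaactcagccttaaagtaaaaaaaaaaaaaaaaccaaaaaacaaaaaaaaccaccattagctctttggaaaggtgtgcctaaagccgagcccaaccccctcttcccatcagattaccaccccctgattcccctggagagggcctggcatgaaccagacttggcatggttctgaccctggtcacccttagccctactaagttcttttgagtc

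The Tgfb1 window was rich in G and C (75.2%) and held 5 GC boxes, the letters bound by Sp1-type factors. At least 1 GC box was found in 32.7% of all 32851 windows, a share not matched for G and C content. Of the 12 member windows 6 held one. The Ltbp4 windows held 5, 7 and 3, and the Ltbp2 window and 1 Tgfbr1 window held 2 each. The Ltbp1 window had 56.8% G and C, no GC box and 1 cAMP response element from base -73 to base -66 before the start, a motif found in 1.55% of all windows. The window at the other Ltbp1 start held neither motif. The Ltbp3 window had 47.2% G and C and neither motif, and the median over all windows was 52.4%. No AP-1 site (TGAGTCA or TGACTCA, in 4.46% of windows), SMAD box (GTCTAGAC, in 0.167%) or TATA box (TATAAA or TTTATA, in 12.4%) was found in these 3 windows. The shorter SMAD-binding element (CAGAC or GTCTG, not in capitals, in 42.2% of windows) was found once in the Ltbp1 and once in the Ltbp3 window, and the matches of the other motifs did not overlap one another. These matches describe letters only, and binding was not measured.

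The genes whose pattern over the 6 samples was most like that of Tgfb1 were Cspg4, Gch1 and Mcc, by the root mean square difference of mean-centred log2 values, at 0.08, 0.09 and 0.10. Cspg4, which encodes the NG2 proteoglycan of pericytes and some fibroblasts, was 2.14-fold lower (limma adjusted p = 0.0298), a call lost without KrP 3 and without each of the WT samples. Gch1, the first enzyme of tetrahydrobiopterin synthesis, was not called (log2 fold change -0.95, limma adjusted p = 0.0564), but passed with the replicate block (0.00436) and without KrP 2 (0.0198). Mcc was 2.35-fold lower (0.0086), and its call ended without WT 3 or KrP 3. Those most like Ltbp3 were Ephx1, an epoxide hydrolase, Gria1, a glutamate receptor subunit whose WT mean of 6.10 lay under the olfactory 95th percentile, and Lzts2, at differences of 0.05, 0.07 and 0.08. Their log2 fold changes were 0.80, 0.98 and 0.87 (limma adjusted p = 0.0388, 0.026 and 0.0271). Of the 6 samples, KrP 2 was the 1 whose removal kept these 3 calls. With quantile normalisation the adjusted p was 0.0565 for Ephx1 and 0.0659 for Lzts2. The measure includes the difference between the groups, which all these genes share with the member they resemble.

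Other genes of the pathway, in 5 partly overlapping lists of genes that act with the members, changed in both directions. Of 106 measured, 5 rose and 3 fell, 7.55% against 2.18% of all genes, with a median log2 fold change of -0.01. The lists were chosen with earlier results of these data known, so this share is not an independent result. The 2.18% also covers genes of all levels. With the lower 50% of genes by mean level dropped, 548 of the genes kept passed, against 483 of all 22180. The share that passed among the genes kept was therefore well above 2.18%. Of the pathway genes kept in that fit, 9 passed. With the replicate block 20 rose and 15 fell, where 8.35% of all genes passed. Without KrP 3 a single gene of the 106 passed, where 85 of 22180 did, and without KrP 2 21 passed, where 1116 of 22180 did.

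Among 24 genes that release or store latent TGF-beta, 1 rose, 1 fell and 22 did not pass (4 rose and 4 fell with the block), with a median log2 fold change of -0.07. Mmp9, a gelatinase that can release active TGF-beta, was 3.65-fold lower in KrP samples, at 9.49, 9.49 and 8.97 in WT and 7.29, 7.78 and 7.28 in KrP samples (limma adjusted p = 0.00511). Its groups lay far apart, and the call held in all 15 other settings. Htra1, a secreted serine protease, was 2.04-fold higher (limma adjusted p = 0.0290), at 10.64 ± 0.38 and 11.67 ± 0.07 (SD, n = 3 each), and the call ended without WT 3, KrP 1 or KrP 3. The integrin subunit Itgav, part of the main activating integrins, was not called (log2 fold change -0.35 ± 0.09 SE, limma adjusted p = 0.0894) but passed with the block (0.0410). Its partner Itgb8 lay below the olfactory 95th percentile in both groups, at 5.60 and 5.70. Thbs1, whose product thrombospondin 1 can activate the latent complex, had a log2 fold change of -0.19 ± 0.14 SE (limma adjusted p = 0.571). Fbn1, the microfibril protein on which latent binders are anchored, was not analysed here as a single gene.

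Among 16 co-receptors and extracellular binders, 1 rose and 2 fell (4 and 4 with the block), with a median log2 fold change of -0.04. Nrp2, a neuropilin that can bind TGF-beta, was 1.64-fold lower, with 12.00, 11.95 and 12.01 in WT and 11.41, 11.42 and 10.98 in KrP samples (limma adjusted p = 0.0336). Acvrl1, the type I receptor ALK1, was 1.76-fold lower (adjusted p = 0.0452), and Eng, its co-receptor endoglin, had a log2 fold change of -0.18 ± 0.09 SE (limma adjusted p = 0.356). A2m, a protease inhibitor that binds cytokines, was 1.71-fold higher (adjusted p = 0.0454), with a WT mean of 6.27 that lay under the olfactory 95th percentile. The call of Nrp2 was lost without KrP 3 and without each WT sample, and those of Acvrl1 and A2m without any 1 sample other than KrP 2. With median centring the adjusted p of Acvrl1 was 0.0540.

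Of 24 SMAD transducers, co-repressors and feedback genes, 0 passed limma and 9 had an unadjusted p under 0.05, where 16% of all genes did, with a median log2 fold change of -0.11. With the block 2 of the 24 fell, a share near the 8.35% of all genes. These 2, Skil and Smad7, are feedback inhibitors that TGF-beta itself is known to induce. Smad7 had values of 11.27, 11.37 and 11.40 in WT and 10.59, 11.12 and 10.81 in KrP samples, all KrP values below all WT values (limma adjusted p = 0.123, or 0.0340 with the block). For Skil the log2 fold change was -0.62 ± 0.16 SE (limma adjusted p = 0.0962, against 0.0146 with the block). Smad3, the main transducer in fibroblasts, had one of -0.34 ± 0.22 SE (limma adjusted p = 0.519).

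Of 33 genes known to respond to TGF-beta in fibroblasts, 2 rose, none fell and 31 did not pass (9 rose and 5 fell with the block), with a median log2 fold change of 0.02. With the lower 25% or 50% of all genes by mean level dropped, 1 gene of the list fell. Timp1, an inhibitor of metalloproteinases, was 2.00-fold higher (limma adjusted p = 0.00707), with 12.07, 12.41 and 12.05 in WT and 13.26, 13.00 and 13.27 in KrP samples. Snai1, a transcription factor of mesenchymal transitions, was 2.32-fold higher (limma adjusted p = 0.0404). The call of Timp1 ended without KrP 3 (limma adjusted p = 0.0592), and that of Snai1 without any 1 sample other than KrP 2. Tgfbi, a matrix protein named for its induction by TGF-beta, had values of 10.55, 11.27 and 11.40 in WT and 9.09, 10.44 and 10.23 in KrP samples, with all KrP values below all WT values (limma adjusted p = 0.166, or 0.00521 with the block). Ccn2, also called connective tissue growth factor, had values of 10.23, 11.69 and 11.46 in WT and 8.48, 11.69 and 12.30 in KrP samples, with KrP 1 far below the rest (log2 fold change -0.30, 95% confidence interval -2.36 to 1.76). The cytokine gene Il11, known to be induced by TGF-beta in fibroblasts, had the largest difference of the list, with 9.77, 10.06 and 9.49 in WT and 7.66, 8.98 and 7.89 in KrP samples. All its KrP values lay below all WT values, 3.02-fold lower between the means (limma adjusted p = 0.0524, against 0.00612 with the block). The smooth muscle actin gene Acta2 was higher in every KrP sample than in any WT sample, by 1.31 ± 0.40 SE between the means on the log2 scale (limma adjusted p = 0.154, against 0.0138 with the block). Col1a1, a collagen I chain, had overlapping groups and a mean difference of 1.18 ± 0.46 SE (limma adjusted p = 0.258, against 0.0486 with the block). Il11, Acta2, Col1a1 and Skil were chosen after their values were seen.

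Of 19 elastic fibre and microfibril genes that act with the latent binders, 1 rose and none fell (5 and 2 with the block), with a median log2 fold change of 0.19. Hspg2, the basement membrane proteoglycan perlecan, was 1.90-fold higher (limma adjusted p = 0.0388), a call that ended with quantile normalisation (0.0530) and without any 1 sample other than KrP 2. Fbln5, whose product depends on Ltbp4 for its deposition, was not called (log2 fold change -0.66 ± 0.15 SE, limma adjusted p = 0.0752), passed with the block (0.0169) and was likewise chosen after its value was seen.

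**Figure D4:**
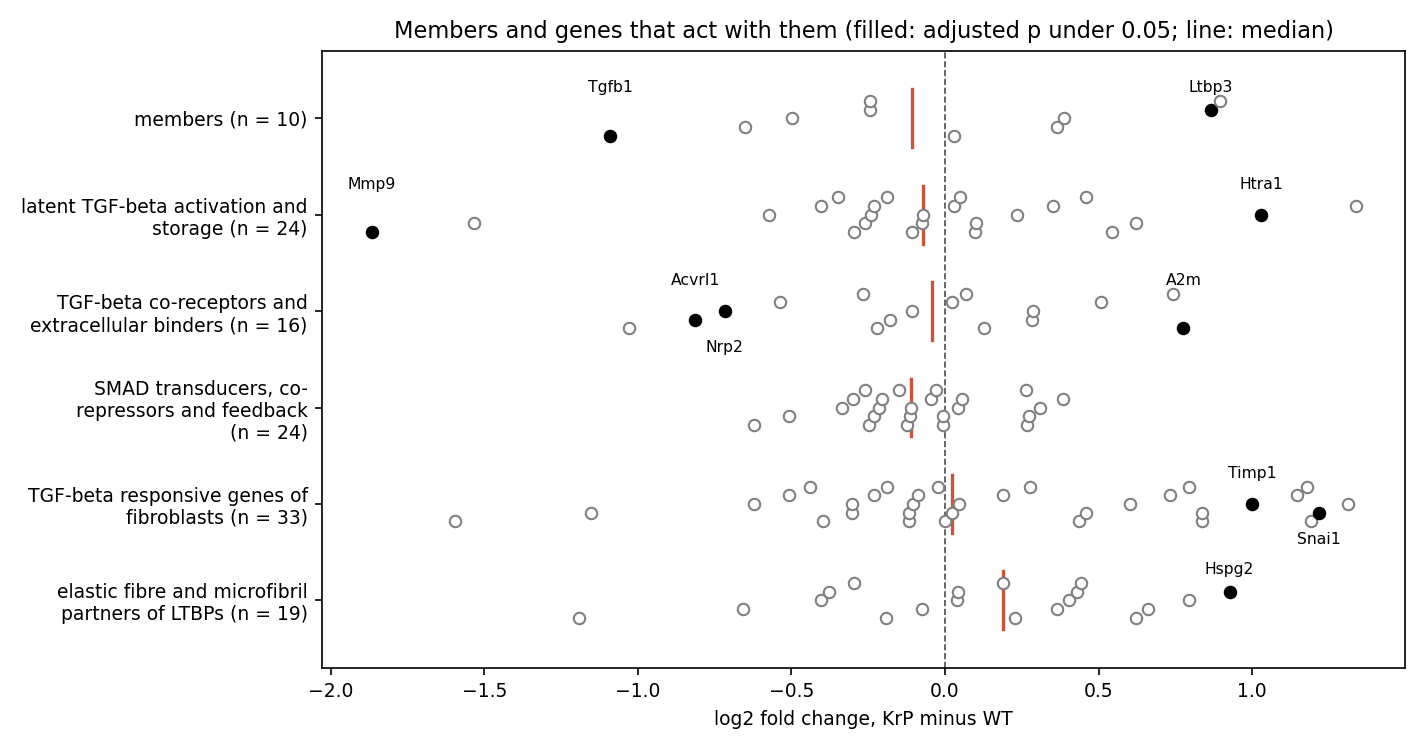
Log2 fold change, KrP minus WT, of the 10 members and of the genes in 5 lists that act with them, 1 point per gene (vertical offsets only separate points), filled and named where the limma adjusted p was under 0.05, with a red line at each median. The filled points are Tgfb1, Mmp9, Acvrl1 and Nrp2 on the lower side and Ltbp3, Htra1, A2m, Timp1, Snai1 and Hspg2 on the higher side.

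Markers of other cell types were measured beside the members, as the log2 of a list's summed linear signal per sample. The fibroblast list (10 genes, none under the olfactory 95th percentile) ranged from 15.71 to 15.88 in WT and from 15.84 to 16.09 in KrP samples. Its median log2 fold change was 0.46, with 8 of 10 genes above 0 and none called, while Pdgfrb, Col1a2 and Col1a1 passed with the block (limma adjusted p = 0.0153, 0.0323 and 0.0486). The leukocyte list (11 genes, 7 with means under the olfactory 95th percentile, among them Ptprc) ranged from 10.27 to 10.68 in WT and from 10.37 to 10.58 in KrP samples. Of its 11 genes, 10 had a log2 fold change below 0 and 1 above 0, with a median of -0.14. The 1 above 0 was Csf1r, also its 1 called gene (log2 fold change 0.73). The endothelial list (10 genes, 4 under that percentile) ranged from 10.53 to 10.80 and from 10.73 to 10.93, with Flt1 higher (log2 fold change 1.07) and Tek lower (-0.76). Tek lay near background, with a WT mean of 6.52 and a KrP mean of 5.76, the latter under that percentile. Kdr, a receptor of vascular endothelial growth factor, had the largest difference of that list, at 9.28, 8.19 and 8.67 in WT and 7.76, 6.84 and 7.31 in KrP samples without overlap (limma adjusted p = 0.0658, against 0.00158 with the block). The mural and smooth muscle list (10 genes, 2 under it) ranged from 10.94 to 11.35 and from 11.39 to 12.64 without overlap, with Acta2 its brightest gene, 6 of its 10 genes above 0 in log2 fold change and Cspg4, which was lower, the 1 called gene. The keratinocyte list (10 genes, 6 under it) ranged from 9.72 to 10.56 and from 9.63 to 10.03, and the melanocyte list (7 genes, 5 under it) from 9.64 to 9.75 and from 9.87 to 10.48, with no gene called in either. The log2 fold change was below 0 for 8 of the 10 keratinocyte genes and for 5 of the 7 melanocyte genes. In the keratinocyte list WT 2 stood apart, with 7.59 for Krt14 against 6.78 and 6.52 in WT 1 and WT 3, and 7.74 for Cdh1 against 6.63 and 6.55. WT 2 also had the highest Tgfb1 value, and without it the log2 fold change of Tgfb1 was -0.96 (limma adjusted p = 0.0530). The part of keratinocyte RNA in that value was not tested. The melanocyte sum followed Mitf, a transcription factor not restricted to melanocytes, whose means were 8.82 and 9.57, while Dct, Tyrp1, Tyr, Pmel and Kit lay under the olfactory 95th percentile in both groups and the sort selected against CD117, the product of Kit. The adipocyte list (7 genes, 5 under it) ranged from 9.31 to 9.58 and from 8.82 to 9.95, and the 4 Schwann cell genes, 2 under it, from 7.86 to 8.22 and from 7.93 to 8.13, also with none called. The summed mural and melanocyte levels thus did not overlap between the groups, but these sums were led by 1 gene each, Acta2 and Mitf. Their lack of overlap therefore does not describe either list as a whole. The part of mural or melanocyte RNA in the differences of Tgfb1, Ltbp1 and Ltbp3 was not tested.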

How the data were processed

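Gene expression was measured in 3 WT and 3 KrP samples on 1 array each, after labelling of 100 ng of RNA, per the labels' protocols. The deposited table holds log2 values per probe set made by the authors, and the submitters' processing notes name RMA and Partek without version or role. A genome build is not given in the sources used here. Robust multi-array averaging of this kind compresses differences near background.

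Genes were assigned from the platform annotation and, by gene ID, from a RefSeq table (GRCm38.p6). Of 34390, 23521 had 1 gene symbol, 1814 several and 9055 none, and 23328 were found in that table. For a gene with several, the probe set with the highest mean was used, giving 22180 genes. Differences were fitted over all genes with limma 3.58.1 in R 4.3.3 (eBayes with a trend, no filter, no block). Log2 fold changes are KrP minus WT. The fit was tested on simulated data with independent noise on each array. That test did not include the correlation between same-numbered samples described below. Figures used matplotlib 3.10.9.

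The members and gene lists were chosen with earlier results of these data known. Named genes are the members, up to 4 called genes per list and direction, 10 set partners where measured, and the 3 genes nearest in pattern to each called member, leaving out predicted genes, small RNAs and olfactory receptors. Alternatives left out the trend, made the prior robust, weighted arrays, dropped low genes, renormalised, averaged probe sets, added the replicate number as a block or left out each sample.

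Both groups carry the numbers 1 to 3. Deviations from the group mean correlated over genes by 0.414, 0.350 and 0.120 between same-numbered samples, each above 0.1. Between samples of different number the correlations ran from -0.385 to 0.067, the latter for WT 2 and KrP 3. Deviations within a group sum to 0, so these correlations depend on one another. The numbers were taken to pair the samples, on the data alone, since no label states it. As the block was chosen from these same values, p-values with it are not independent support. Blocked values stand beside the results whose call they change.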

Additional observations from a re-analysis of the deposited data

How the results depend on the processing

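No member changed direction under the 15 alternatives except Tgfb3, at -0.09 with quantile normalisation and -0.17 to 0.33 when single samples were left out. Several alternatives cannot change a member's log2 fold change, so they do not test its direction. These are the fits without the trend, with the robust prior, with low genes dropped, with probe sets averaged and with the block. Calls of members numbered 2 in the main fit, 6 with array weights, 5 with the replicate block and 3 with the lower 50% of genes dropped. Member calls numbered 1 with quantile normalisation (Tgfb1) and from 0 to 2 when a sample was left out. They were 0 without WT 2, without WT 3 and without KrP 3, where 5, 3 and 3 members had an unadjusted p under 0.05 by limma. In the same fits 2939, 2458 and 2348 of all 22180 genes had one. Over all genes, 483 were called in the main fit, 6410 with array weights, 1851 with the block, and from 85 (without KrP 3) to 1116 (without KrP 2) with a sample left out. Of the pathway genes, 8 were called in the main fit, 61 with array weights, 35 with the block and from 1 to 21 with a sample left out. Quantile normalisation called 207 genes higher and 242 lower, against 255 and 228 in the main fit, and the block 1182 and 669. Tgfb1 lost its call in 3 of 15 alternatives and Ltbp3 in 6. All losses of Tgfb1 were among the 6 fits that left a sample out, as were those of Ltbp3 except the 1 with quantile normalisation. Of the 15 alternatives, Ltbp1 gained a call in 3, Ltbp2 and Ltbp4 in 2 each and Tgfbr1 in 1. The cause was not tested. The 3 arrays per group limit the precision.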
